A study of Mus musculus with 8 samples.

Results

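Collagens outside the basement membrane were examined in RNA sequencing libraries of tumor endothelial cells from mice with and without induced vascular overexpression of PPARβ/δ, a nuclear receptor that acts as a transcription factor. The rule takes genes by name, as all collagen alpha chains except those of collagen IV, XV and XVIII, though earlier results of these data were known when it was set, and it gave 36 of the 35756 genes in the table. Of these, 26 had enough counts to be tested, among 14539 tested genes in all. The Tamoxifen group held 4 libraries of Tie2-CreERT2;PPARβ/δ + Tamoxifen mice (Tax2604, Tax2689, Tax2382 and Tax2455), and the vehicle group 4 libraries of Tie2-CreERT2;PPARβ/δ + vehicle mice (oil2453, oil2315, oil2653 and oil2368), with 1 library a mouse and the strain labelled C57BL/6 (by the methods, the Tie2-CreERT2 line was crossed back to C57BL/6J). The vehicle was sunflower oil. The sample labels name the vehicle mice wild-type, while the methods give both groups the same alleles, a Tamoxifen-inducible Cre under the Tie2 promoter and a PPARβ/δ-flox+/- allele that Cre switches on. Tie2 is active in endothelial cells and also in some blood cells. Tamoxifen was given to adult mice, and the groups were matched for age and sex. All mice carried subcutaneous tumors of LLC1 Lewis lung carcinoma cells, from which cells were taken with CD31 MicroBeads. No mouse with Tie2-CreERT2 alone and Tamoxifen is among the libraries, so effects of Tamoxifen or active Cre and of the overexpression cannot be told apart.

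A collagen is built from alpha chains that wind around each other into a triple helix. Fibrillar collagens such as I, III and V assemble into the cross-striated fibrils of connective tissue, collagen VI forms beaded filaments beside them, and fibril-associated collagens sit on the fibril surface. Other collagens form hexagonal networks, anchor epithelia or span the cell membrane. In tumors, fibroblasts and mural cells are known as the main makers of fibrillar collagens, whereas endothelial cells are known for the collagens of the vascular basement membrane.

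The libraries held between 19730726 and 24884372 counted reads. Ppard itself was at 122.2, 70.9, 120.0 and 118.1 CPM in Tax2604, Tax2689, Tax2382 and Tax2455, against 74.1, 88.3, 53.4 and 81.9 CPM in oil2453, oil2315, oil2653 and oil2368, where CPM is the count scaled to library size and by TMM, a normalization between libraries. The level in Tax2689 lay inside the range of the vehicle libraries. The TMM scaling factor was 0.7605 in oil2453 and between 0.9463 and 1.097 in the other 7 libraries. Defining markers of endothelial cells were present in all libraries, Pecam1 at 612.1 to 1073.3 CPM with Tamoxifen and 214.7 to 416.0 CPM with vehicle. The isolates were not pure by their markers. Summed over 12 genes, macrophage markers took 8107.5 to 14444.8 CPM with Tamoxifen and 4973.4 to 11654.3 CPM with vehicle. The summed level of 20 pan-endothelial markers was 3312.9 to 6464.6 CPM with Tamoxifen and 465.1 to 2284.2 CPM with vehicle, and that of mural cell markers 658.6 to 965.6 CPM and 58.26 to 235.3 CPM in the same order, without overlap. No marker of these 3 lists was at 0 in any library. As RNA was measured in bulk, fewer cells of a type and less RNA per cell cannot be told apart.

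The summed level of the collagens outside the basement membrane overlapped between Tamoxifen and vehicle libraries, while single members such as Col13a1, a collagen of the cell surface, were higher in all Tamoxifen libraries. By the quasi-likelihood test of edgeR, 0 of the 26 tested members were called at an adjusted p of 0.05, and 0.0% of all genes tested. Under an unadjusted p of 0.05, 6 members (23.1%) were higher with Tamoxifen, against 7.39% of all genes tested, and 0 were lower, against 3.54%. The 6 were Col27a1 among 9 tested fibrillar collagens, Col6a3 among 6 of collagen VI, Col14a1 among 5 fibril-associated collagens, Col13a1 and Col17a1 among 3 transmembrane collagens, and Col28a1. DESeq2 called 1 member (3.85%) higher, Col13a1, against 3.46% of the genes it tested, a share near the background, and 0 lower, against 0.168%. In 3 members (11.5%), Col13a1, Col27a1 and Col28a1, every Tamoxifen library was above every vehicle library, against 5.87% of all genes. In 0 members was every Tamoxifen library below every vehicle library, against 2.01%, and 23 members overlapped. The log2 fold change was above 0 in 17 members (65.4%, against 47.2% of all genes tested) and below 0 in 9, with a median of 0.46 beside -0.03 over all genes tested. Errors of log2 fold changes are standard errors (SE), derived as the absolute log2 fold change over the square root of the F statistic of the edgeR test. The count under an unadjusted p of 0.05 depended on the library left out. It was 1 (Col13a1) without Tax2604, 3 without oil2315, and 4 higher with 2 lower (Col16a1 and Col8a1) without Tax2455. Without oil2453, oil2653, oil2368 or Tax2689 it was 5 each, and without Tax2382 it was 6. The shares over all genes in these fits were not counted.

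**Figure D1:**
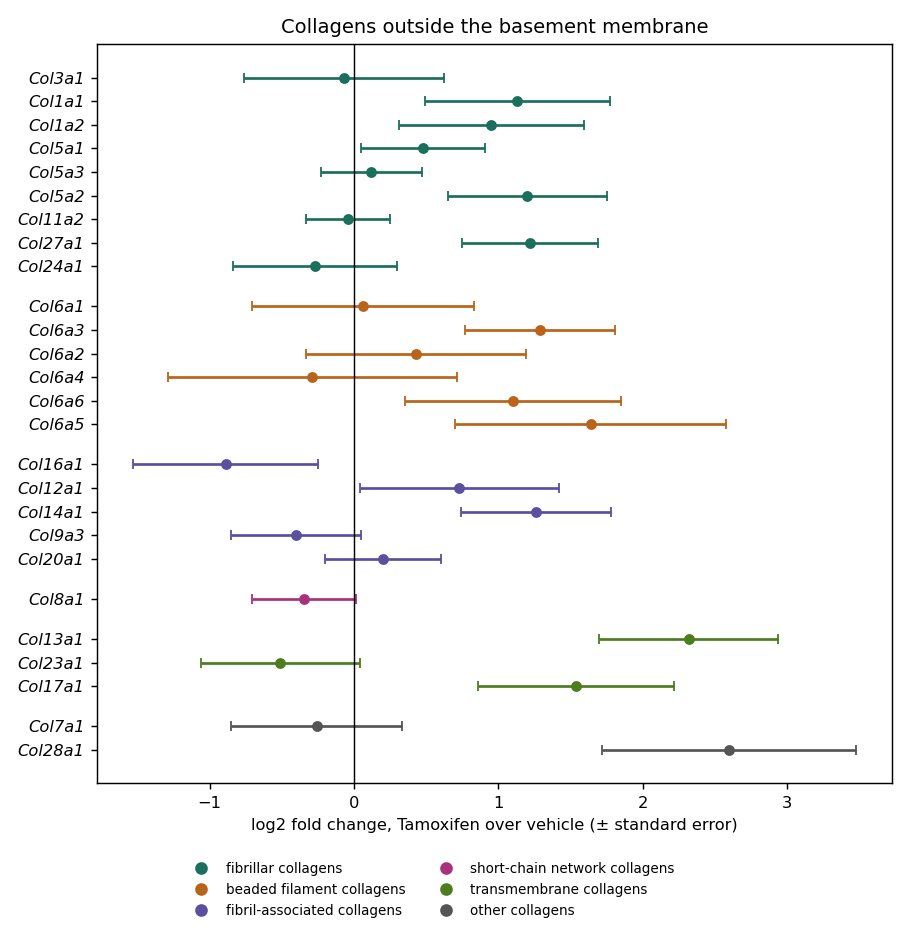
The 26 tested collagens outside the basement membrane, grouped by structural class from top to bottom, with the log2 fold change of Tamoxifen over vehicle on the x axis (points) and its standard error (bars) from edgeR. Values run from -0.89 (Col16a1) to 2.60 (Col28a1), and 17 of the 26 points lie right of the line at 0.

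Levels of different genes were compared as FPKM, the deposited fragments per kilobase of transcript, scaled for the reads of a library, since long genes collect more reads. Col3a1, whose product forms the homotrimers of collagen III, was far above all other members, at 672.3 ± 499.5 FPKM with Tamoxifen and 592.8 ± 313.2 FPKM with vehicle (SD, n = 4 each). It was followed by Col1a1, with 129.7 ± 62.0 FPKM and 56.2 ± 48.0 FPKM in the same groups, and by Col6a1, with 79.4 ± 50.9 FPKM and 60.4 ± 63.3 FPKM. These neighbours in the order, Col1a1 and Col6a1, did not differ beyond their spread. The highest members of the other classes were Col16a1, with a mean of 33.6 FPKM over the 8 libraries, Col7a1 with 7.97 FPKM, Col13a1 with 4.68 FPKM and Col8a1 with 2.34 FPKM. In the tested members, the deposited FPKM exceeded the scaled count by listed kilobase of gene 1.0 to 3.33 times, so the order of close levels depends on the length that was used.

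At the other end, 10 members had too few reads to be tested. Among fibrillar collagens these were the cartilage chains Col2a1 (29 counts over the 8 libraries) and Col11a1 (13 counts). Col9a1, Col9a2, Col19a1 and Col22a1, fibril-associated collagens, had 7, 18, 1 and 6 counts. The network collagens Col8a2 and Col10a1 had 16 and 7 counts, the transmembrane collagen Col25a1 had 12 and Col26a1 had 2. Levels this low could not be compared between the groups.

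Windows of 300 bases around the transcription start, taken from RefSeq (GRCm38.p6), were found for 28 of the 36 members. The windows of 3 members are shown, since their genes stand for the patterns described next: Col3a1 and Col1a2, which followed different libraries, and Col13a1, the member that DESeq2 called. Lower case letters run 5′ to 3′ along the gene. Capitals mark the letters CCAAT (of the CCAAT box), TATAAA (of the TATA box) and GGGCGG (of the GC box). Each was searched on both strands, and the matches do not overlap in these windows. The distance of a match from the transcription start was not used, so capitals do not place a working box. The windows lie at chr1:45311288-45311587 (plus strand), chr6:4505368-4505667 (plus strand) and chr10:61979059-61979358 (minus strand) of GRCm38.p6.
Col3a1: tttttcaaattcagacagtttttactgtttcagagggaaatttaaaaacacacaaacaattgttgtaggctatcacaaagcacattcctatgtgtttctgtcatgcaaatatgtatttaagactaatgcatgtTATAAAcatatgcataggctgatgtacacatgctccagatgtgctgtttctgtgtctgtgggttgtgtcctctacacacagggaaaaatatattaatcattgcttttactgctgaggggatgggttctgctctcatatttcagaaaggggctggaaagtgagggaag
Col1a2: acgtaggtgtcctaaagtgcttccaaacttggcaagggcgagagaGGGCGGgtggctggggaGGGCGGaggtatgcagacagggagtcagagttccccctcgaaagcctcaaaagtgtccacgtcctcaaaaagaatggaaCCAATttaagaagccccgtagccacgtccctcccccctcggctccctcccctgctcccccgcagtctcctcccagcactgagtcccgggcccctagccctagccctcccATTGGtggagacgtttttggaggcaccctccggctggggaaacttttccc
Col13a1: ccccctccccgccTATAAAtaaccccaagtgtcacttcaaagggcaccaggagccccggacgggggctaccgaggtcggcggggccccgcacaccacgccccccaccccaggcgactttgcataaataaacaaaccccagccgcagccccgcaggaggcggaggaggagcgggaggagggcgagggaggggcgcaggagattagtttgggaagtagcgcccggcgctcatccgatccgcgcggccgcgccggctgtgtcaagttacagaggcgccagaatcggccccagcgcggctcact
The Col3a1 window held TATAAA from base 134, counted from its first base, and the Col13a1 window from base 14. The Col1a2 window held CCAAT from base 142, its reverse complement from base 251, and GGGCGG from bases 46 and 63. CCAAT was found in 9 of the 28 members and in 37.4% of all 32851 RefSeq windows of this length, TATAAA in 5 members and 13.6% of all windows, and GGGCGG in 17 members and 35.7% of all windows. AGGTCA, the core letters of the sites of PPARs and other nuclear receptors, was in 7 members (Col11a1, Col20a1, Col23a1, Col24a1, Col6a5, Col7a1 and Col9a1) and in 16.3% of all windows. The direct repeat of these core letters, with 1 free base between the copies, was searched too. It was in 0 of the 28 members and in 0.0396% of all windows, so rare that its absence from the members decides nothing. The matches are descriptions of the letters only.

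The fibrillar collagens, of which 9 of 11 were tested, did not move together. Col3a1 (chromosome 1, 45311538 to 45349706, GRCm38) had 1391.9, 862.2, 177.7 and 2118.0 CPM in Tax2604, Tax2689, Tax2382 and Tax2455, against 2487.7, 930.5, 610.8 and 757.5 CPM in oil2453, oil2315, oil2653 and oil2368. The highest library was thus a vehicle and the lowest a Tamoxifen library, and the groups overlapped over nearly their whole range. In edgeR, Col3a1 had a log2 fold change of -0.07 ± 0.69 (SE, adjusted p = 0.977). Leaving out oil2453 turned it to 0.58, and library size alone to 0.18, so no direction can be given for Col3a1.

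Collagen I, the main collagen of skin, bone and scar, is made of chains from Col1a1 and Col1a2. Col1a1 (chromosome 11, 94936224 to 94953042) was at 224.8, 186.7, 118.0 and 344.7 CPM in the Tamoxifen libraries, against 35.6, 23.6, 175.7 and 163.8 CPM in the vehicle libraries, in the order above. Here oil2453 and oil2315 were far below all others, while oil2653 and oil2368 lay inside the range of the Tamoxifen libraries. In edgeR, Col1a1 had a log2 fold change of 1.13 ± 0.64 (SE, adjusted p = 0.507), and Col1a2 had 0.95 ± 0.64 (SE, adjusted p = 0.575).

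Collagen V regulates the diameter of collagen I fibrils, and its alpha 2 chain, Col5a2 (chromosome 1, 45374321 to 45503282), shared the 2 lowest libraries with Col1a1. It had 63.8, 63.2, 31.3 and 73.3 CPM in the Tamoxifen libraries, against 13.3, 6.59, 38.4 and 42.3 CPM in the vehicle libraries. Again oil2453 and oil2315 were lowest, and only Tax2382 reached into the range of the vehicle libraries. In edgeR, Col5a2 had a log2 fold change of 1.20 ± 0.55 (SE, adjusted p = 0.46). Its partner chains Col5a1 and Col5a3 had log2 fold changes of 0.48 ± 0.43 (0.10 without Tax2455) and 0.12 ± 0.35.

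Col27a1, a fibrillar collagen known from developing cartilage, was low but separated the groups. It was at 5.11, 2.96, 4.46 and 3.22 CPM in the Tamoxifen libraries, against 1.09, 0.696, 2.61 and 2.33 CPM in the vehicle libraries. All Tamoxifen libraries were above all vehicle libraries, with oil2653 close to Tax2689. In edgeR, Col27a1 had a log2 fold change of 1.22 ± 0.47 (SE, unadjusted p = 0.028, adjusted p = 0.397). The remaining fibrillar members, Col11a2 and Col24a1, had log2 fold changes of -0.04 ± 0.29 and -0.27 ± 0.57.

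Collagen VI, which links cells to the fibrillar matrix, is assembled from Col6a1, Col6a2 and one further chain, in most tissues Col6a3. All 6 of its genes were tested. Col6a1 (chromosome 10, 76708792 to 76726168) was at 235.6, 136.6, 57.1 and 321.4 CPM in the Tamoxifen libraries, against 513.2, 66.5, 60.0 and 82.2 CPM in the vehicle libraries. A single vehicle library, oil2453, held the highest level, and the other 3 were near the lowest Tamoxifen library, Tax2382. The log2 fold change of Col6a1 was 0.06 ± 0.77 (SE, adjusted p = 0.983 from edgeR) with all libraries and 1.44 without oil2453. For Col6a2, whose gene lies beside Col6a1, it was 0.43 ± 0.76 and 1.77 without oil2453.

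Col6a3 (chromosome 1, 90765923 to 90843971) had 344.4, 131.7, 83.4 and 331.0 CPM in the Tamoxifen libraries, against 139.5, 80.6, 38.6 and 104.8 CPM in the vehicle libraries. In contrast to Col6a1, oil2453 was only slightly above Tax2689, and the 2 highest libraries were Tamoxifen libraries. In edgeR, Col6a3 had a log2 fold change of 1.29 ± 0.52 (SE, unadjusted p = 0.0334, adjusted p = 0.422). The alternatives to Col6a3, Col6a4, Col6a5 and Col6a6, were at means between 0.118 and 0.826 FPKM, with log2 fold changes of -0.29 ± 1.0, 1.64 ± 0.94 and 1.10 ± 0.75. Their libraries varied widely, for Col6a4 between 0.121 CPM in oil2453 and 8.31 CPM in oil2653, and without oil2653 its log2 fold change was 1.20. That of Col6a5 was 2.68 without oil2368, and that of Col6a6 was 0.30 without Tax2382.

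**Figure D2:**
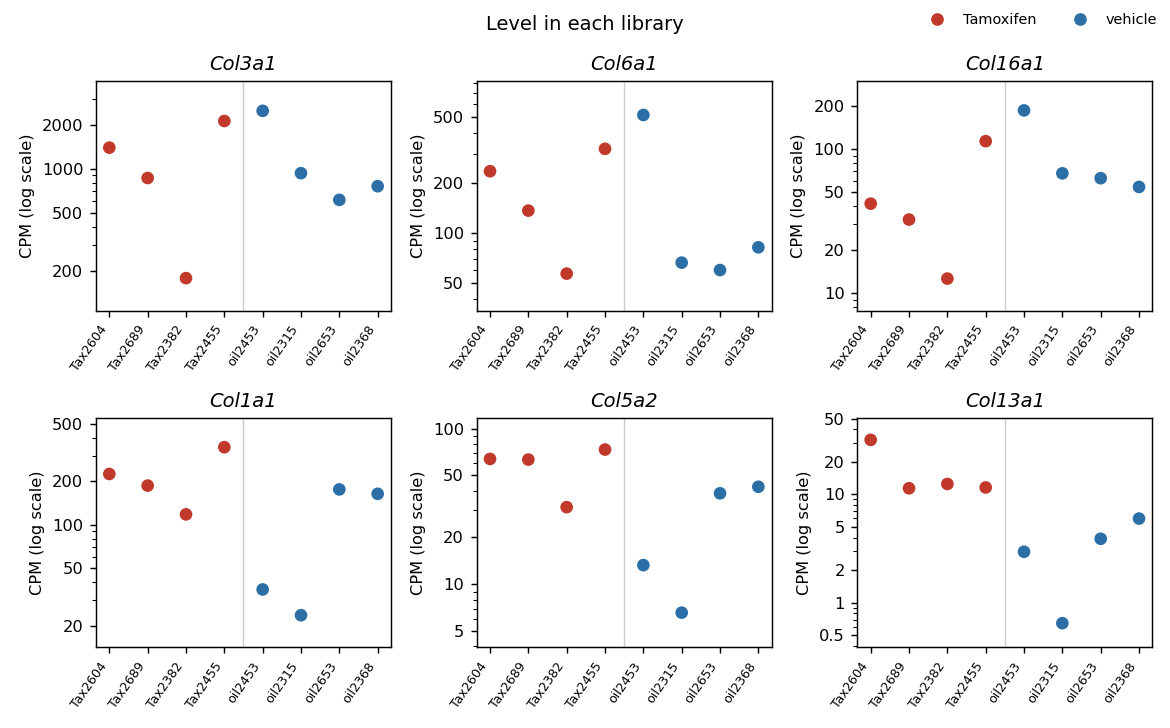
Level of 6 collagen genes in each library, in CPM on a logarithmic y axis, with the 4 Tamoxifen libraries (red) left of the 4 vehicle libraries (blue). In the upper row (Col3a1, Col6a1, Col16a1) oil2453 is the highest library, at 2487.7, 513.2 and 185.8 CPM, whereas in the lower row (Col1a1, Col5a2, Col13a1) oil2453 and oil2315 are the lowest.

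Among the fibril-associated collagens, Col16a1 and Col14a1 had log2 fold changes of opposite sign. Col16a1 (chromosome 4, 130047840 to 130099283), a minor component of fibrils, was at 41.8, 32.4, 12.6 and 113.6 CPM in the Tamoxifen libraries, against 185.8, 67.9, 62.8 and 54.6 CPM in the vehicle libraries. Of the Tamoxifen libraries, 3 were below all vehicle libraries and Tax2455 was above 3 of them. In edgeR, Col16a1 had a log2 fold change of -0.89 ± 0.64 (SE, adjusted p = 0.595), the lowest of the 26 members with all libraries. It was -1.66 without Tax2455 and -0.29 without oil2453, where Col6a4 (-0.66), Col23a1 (-0.35) and Col24a1 (-0.31) were lower.

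Col14a1 (chromosome 15, 55307750 to 55520803), known to bind the proteoglycan decorin, was at 19.9, 7.24, 4.29 and 11.2 CPM in the Tamoxifen libraries, against 4.52, 6.86, 1.93 and 4.52 CPM in the vehicle libraries. All Tamoxifen libraries except Tax2382 were above the vehicle libraries. In edgeR, Col14a1 had a log2 fold change of 1.26 ± 0.52 (SE, unadjusted p = 0.0381, adjusted p = 0.43), and without Tax2604 one of 0.79. Col12a1, a collagen of tendons and dense tissue, had a log2 fold change of 0.73 ± 0.69 (0.40 without oil2453 and 1.45 without oil2368), Col20a1 one of 0.20 ± 0.40 and Col9a3 one of -0.40 ± 0.45. Whether reads of Col20a1 include those of the gene 9230112E08Rik, which overlaps it on the same strand (means of 4.207 CPM in Tamoxifen and 3.097 CPM in vehicle libraries), was not stated by the methods.

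The member with the smallest p was a transmembrane collagen. Col13a1 (chromosome 10, 61838236 to 61979108), a collagen of the cell surface that takes part in cell adhesion and in neuromuscular junctions, was at 31.9, 11.4, 12.5 and 11.6 CPM in the Tamoxifen libraries, against 2.96, 0.649, 3.90 and 5.99 CPM in the vehicle libraries. All Tamoxifen libraries were above all vehicle libraries, and Tax2604 stood above the other 3 Tamoxifen libraries. In edgeR, Col13a1 had a log2 fold change of 2.32 ± 0.62 (SE, unadjusted p = 0.00409, adjusted p = 0.169), and DESeq2 gave 2.31 with an adjusted p = 0.00651. Without any 1 library it stayed between 1.84 and 2.73. The pan-endothelial and mural cell markers, whose ranges are given above, were likewise higher in all Tamoxifen libraries, and their part in the level of Col13a1 was not tested.

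Col17a1, a transmembrane collagen of the hemidesmosomes that fix epithelial cells, had 4.37, 2.03, 1.15 and 0.614 CPM in the Tamoxifen libraries, against 0.482, 0.325, 1.33 and 0.640 CPM in the vehicle libraries. Tax2604 and Tax2689 were above all vehicle libraries and the other Tamoxifen libraries overlapped with them. In edgeR, Col17a1 had a log2 fold change of 1.54 ± 0.68 (SE, unadjusted p = 0.0489, adjusted p = 0.454), and without Tax2604 one of 0.87. Col23a1, the remaining tested transmembrane collagen, had a log2 fold change of -0.51 ± 0.55.

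Col28a1, a collagen known from peripheral nerve, had few counts, with 49, 12, 15 and 31 in the Tamoxifen libraries, against 4, 0, 10 and 2 in the vehicle libraries. Scaled, it was at 2.41, 0.508, 0.637 and 1.19 CPM in the Tamoxifen libraries, against 0.241, 0, 0.428 and 0.0914 CPM in the vehicle libraries. All Tamoxifen libraries were above all vehicle libraries, although Tax2689 and oil2653 were separated by only 2 counts. The fitted log2 fold change was 2.60 ± 0.88 (SE, unadjusted p = 0.0148, adjusted p = 0.304 from edgeR; adjusted p = 0.0539 from DESeq2), and without 1 library it ran between 2.03 and 3.43.

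Col8a1, a network collagen of vessel walls and of the membrane below corneal endothelium, was at 10.8, 5.97, 7.14 and 18.1 CPM in the Tamoxifen libraries, against 15.1, 15.4, 12.8 and 10.4 CPM in the vehicle libraries. The range of the vehicle libraries lay inside that of the Tamoxifen libraries. In edgeR, Col8a1 had a log2 fold change of -0.35 ± 0.36 (SE, adjusted p = 0.718).

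Col7a1, the collagen of the anchoring fibrils below epithelia, was at 30.7, 14.8, 6.12 and 59.8 CPM in the Tamoxifen libraries, against 49.6, 24.5, 23.6 and 35.4 CPM in the vehicle libraries. As for Col8a1, Tax2455 was the highest library and the groups overlapped. In edgeR, Col7a1 had a log2 fold change of -0.26 ± 0.59 (SE, adjusted p = 0.893).

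Ratios within a library, which do not depend on its scaling, showed which chains kept in step. The chains of collagen I did so: Col1a1/Col1a2 in FPKM was 1.99, 1.63, 2.13 and 1.83 in the Tamoxifen libraries, against 1.51, 1.72, 1.57 and 1.71 in the vehicle libraries. The ratio stayed within 1.4-fold over libraries in which Col1a1 itself varied 14.6-fold. The geometric means were 1.88 with Tamoxifen and 1.63 with vehicle (exact two-sided permutation test, p = 0.0857, adjusted p = 0.3 over 7 ratios, with 0.0286 the smallest p that 4 against 4 libraries allow).

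The chains of collagen V did not keep in step. Col5a1/Col5a2 was 1.17, 0.72, 0.816 and 1.5 in the Tamoxifen libraries, against 5.17, 5.0, 0.918 and 1.1 in the vehicle libraries. Only oil2453 and oil2315 stood out, and the other vehicle libraries lay among the Tamoxifen libraries (exact two-sided permutation test, p = 0.229, adjusted p = 0.45).

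The same 2 libraries stood out for Col3a1/Col1a1, which was 6.1, 4.55, 1.48 and 6.05 in the Tamoxifen libraries, against 68.9, 38.8, 3.42 and 4.56 in the vehicle libraries. The geometric means were 3.97 with Tamoxifen and 14.3 with vehicle, and the difference was within the spread of the vehicle libraries (log2 difference -1.85, exact two-sided permutation test, p = 0.257, adjusted p = 0.45).

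For collagen VI, Col6a1/Col6a2 was 2.31, 2.24, 2.08 and 2.4 in the Tamoxifen libraries, against 3.04, 4.18, 2.5 and 2.59 in the vehicle libraries. All Tamoxifen libraries were below all vehicle libraries, with geometric means of 2.25 with Tamoxifen and 3.01 with vehicle (log2 difference -0.42, exact two-sided permutation test, p = 0.0286, adjusted p = 0.2 over 7 ratios). As this p is the smallest that the design allows, this ratio alone could not pass after adjustment. Col6a3/Col6a2 was between 1.15 and 1.8 with Tamoxifen and between 0.44 (oil2453) and 2.7 (oil2315) with vehicle, with an exact permutation p = 0.629. Col12a1/Col1a1 was between 0.0604 and 0.0766 with Tamoxifen and between 0.0522 and 0.113 with vehicle (exact permutation p = 0.514).

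**Figure D3:**
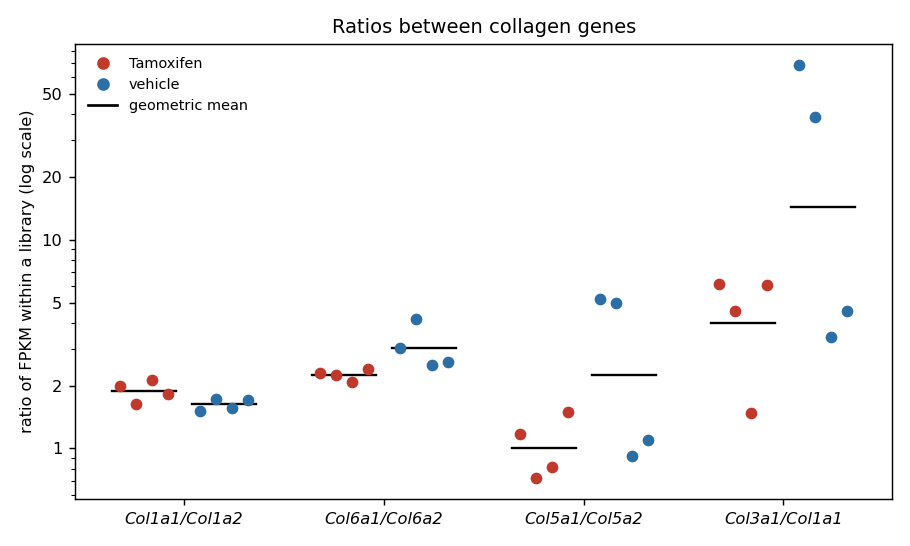
Ratios of the FPKM of collagen genes within each library on a logarithmic y axis, with Tamoxifen libraries (red) left of vehicle libraries (blue) for each ratio, points for libraries and black lines for geometric means. Col1a1/Col1a2 stays between 1.51 and 2.13, whereas Col5a1/Col5a2 and Col3a1/Col1a1 are far higher in oil2453 and oil2315 (5.17 and 5.0, 68.9 and 38.8) than in the other 6 libraries.

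Most members thus fell into one of 2 orders of the libraries, which were noted after the values had been seen and are given as counts. In 7 members, Col3a1, Col5a3, Col6a1, Col6a2, Col16a1, Col23a1 and Col7a1, oil2453 and Tax2455 were the 2 highest libraries, which was so for 10.1% of all genes tested. In 9 others, Col1a1, Col1a2, Col5a2, Col27a1, Col6a4, Col6a5, Col12a1, Col13a1 and Col17a1, oil2453 and oil2315 were the 2 lowest, which was so for 4.77% of all genes tested. By the definition of the sets, the same library, oil2453, was at the top for one set and at the bottom for the other.

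Some of the genes that fold collagen shared the first order. Of 19 genes of collagen folding and hydroxylation, 8 had oil2453 and Tax2455 as the 2 highest libraries and 0 had oil2453 and oil2315 as the 2 lowest. Among the 8 were Serpinh1, which encodes a collagen chaperone, and Plod2, a lysyl hydroxylase. The proteoglycan genes Dcn and Lum had this order too. So had the basement membrane collagen Col18a1, the processing genes Adamts3, Bmp1 and Pcolce and the receptor genes Ddr1 and Mrc2. Of 11 fibroblast markers, 4 (Pdgfra, Dpt, Fbln1 and Twist1) shared that order, whereas Thy1 had the other order, at 9.29 CPM in oil2453 and 12.9 CPM in oil2315, against 41.5 to 109.6 CPM in the other 6 libraries. Of 6 epithelial markers, the keratins Krt8 and Krt18 shared the first order. Summed over the list, fibroblast markers were at 345.5, 279.8, 109.7 and 467.7 CPM in the Tamoxifen libraries, against 491.9, 303.7, 330.5 and 276.2 CPM in the vehicle libraries. Tcf21 was at 0 in every library. Epithelial markers were at 111.4, 160.6, 134.4 and 226.3 CPM in the Tamoxifen libraries, against 760.0, 170.1, 205.7 and 171.6 CPM in the vehicle libraries. In oil2453, Krt8 and Krt18 gave 378.3 and 352.7 CPM of this sum, while Cdh1, the epithelial cadherin, was lowest there (10.1 CPM) and Epcam was highest in oil2653 (9.04 CPM). Both sums were highest in oil2453 and next highest in Tax2455, the same 2 libraries that led the members of the first set, and their part in those levels was not tested.

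The second order was seen in other genes. Among 12 tested mural cell markers, 6 had oil2453 and oil2315 as the 2 lowest libraries (Rgs5, Notch3, Myh11, Tagln, Des and Higd1b), as had Pecam1 and Kdr among 20 pan-endothelial markers, the matrix genes Postn, Bgn and Prelp and the crosslinking gene Loxl1. The basement membrane collagen Col15a1, Adamts2, Itga11 and Mmp2 had it too, as had Cd163 among macrophage markers and Cd2 among T and NK cell markers. All 6 B cell markers shared it as well, with oil2653 highest at a summed 587.0 CPM. Summed mural cell markers were at 965.6, 717.7, 711.5 and 658.6 CPM in the Tamoxifen libraries, against 235.3, 58.26, 177.2 and 216.7 CPM in the vehicle libraries. The sum did not have the second order, as oil2453 was the highest vehicle library, which was also so for Mcam (151.6 CPM) and Kcnj8 (20.4 CPM). Their part in the levels of Col1a1, Col1a2 and Col5a2 was not tested.

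Summed over all 36 members, the collagens outside the basement membrane were at 3032.0, 1913.7, 764.6 and 4290.1 CPM in the Tamoxifen libraries, against 4034.8, 1432.2, 1403.4 and 1672.0 CPM in the vehicle libraries. Both the lowest and the highest library were Tamoxifen libraries. Tamoxifen libraries averaged 2500.1 ± 1510.3 CPM and vehicle libraries 2135.6 ± 1271.8 CPM (SD, n = 4 each). The mean log2 difference of 0.12 was -0.22 without Tax2455 and 0.61 without Tax2382. Col3a1 alone made up 23.2% to 49.4% of the sum with Tamoxifen and 43.5% to 65.0% with vehicle. Without Col3a1, the sums averaged 1362.6 ± 690.6 CPM in Tamoxifen and 939.0 ± 440.8 CPM in vehicle libraries.

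The collagens of the basement membrane differed more between the groups. Their sums were 6609.8, 2761.8, 5086.7 and 4051.4 CPM in the Tamoxifen libraries, against 2624.2, 635.6, 588.6 and 1320.1 CPM in the vehicle libraries, all Tamoxifen libraries above all vehicle libraries. Of 4 tested genes, Col15a1, Col4a2 and Col4a1 were under an unadjusted p of 0.05 in edgeR, with log2 fold changes of 2.35, 2.29 and 2.22, and DESeq2 called all 3, while Col18a1 had 0.26. The sum of the collagens outside the basement membrane over that of the basement membrane collagens was 0.459, 0.693, 0.15 and 1.06 in the Tamoxifen libraries, against 1.54, 2.25, 2.38 and 1.27 in the vehicle libraries. The groups did not overlap in this ratio. For the single genes Col1a1/Col4a1, in FPKM, they did, at 0.089 to 0.357 with Tamoxifen and 0.067 to 1.46 with vehicle (exact two-sided permutation test, p = 0.4, adjusted p = 0.56).

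**Figure D4:**
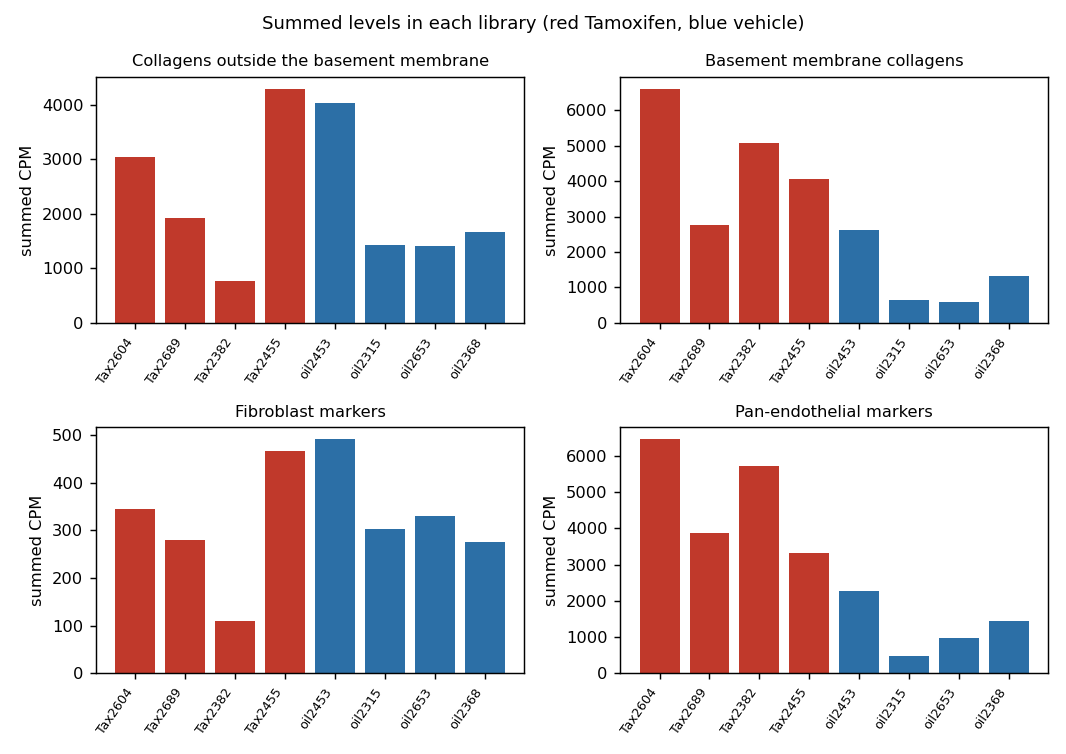
Summed CPM in each library, Tamoxifen (red) left of vehicle (blue), for the collagens outside the basement membrane, the basement membrane collagens, the fibroblast markers and the pan-endothelial markers. The first sum is highest in Tax2455 and oil2453 (4290.1 and 4034.8 CPM) and lowest in Tax2382 (764.6 CPM), as is the sum of fibroblast markers (467.7, 491.9 and 109.7 CPM), whereas the sums of basement membrane collagens and pan-endothelial markers are higher in all Tamoxifen libraries.

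The enzymes and partners of collagens were counted in lists beside the members. edgeR called 0 of their genes at an adjusted p of 0.05, while DESeq2 called 10 in 5 of the 6 lists. These were 3 of 4 tested basement membrane collagens, 3 of 19 folding, 2 of 12 processing, 1 of 11 matrix, 1 of 9 receptor and 0 of 7 protease genes. Over all genes, DESeq2 called 3.46% higher and 0.168% lower. Under an unadjusted p of 0.05 in edgeR, 7.39% of all genes tested were higher and 3.54% lower. In 5.87%, every Tamoxifen library was above every vehicle library. Of the 19 genes of folding and hydroxylation, 3 were higher and 0 lower under an unadjusted p of 0.05, with a list median of 0.15 on the log2 scale. These were Leprel1, a prolyl 3-hydroxylase, Colgalt2, which adds galactose to hydroxylysine, and Fkbp14, a peptidyl-prolyl isomerase. Leprel1 was at 23.6, 17.2, 19.9 and 15.5 CPM in the Tamoxifen libraries, against 4.82, 6.59, 2.87 and 7.63 CPM in the vehicle libraries. It did not overlap between the groups, with a log2 fold change of 1.80 ± 0.33 (SE, adjusted p = 0.0798 from edgeR and 6.74e-05 from DESeq2). The log2 fold changes of Colgalt2 and Fkbp14 were 1.57 and 1.34, and DESeq2 called both. Serpinh1, by contrast, was at 519.8, 379.9, 518.8 and 636.0 CPM in the Tamoxifen libraries, against 618.8, 199.1, 255.5 and 223.5 CPM in the vehicle libraries, so that oil2453 lay among the Tamoxifen libraries.

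Of 12 tested genes of procollagen processing and crosslinking, 4 were higher and 1 lower under an unadjusted p of 0.05 (median 0.39). Tll1, a protease that removes procollagen C-propeptides, was at 22.9, 24.9, 19.3 and 11.8 CPM in the Tamoxifen libraries, against 3.14, 2.04, 2.44 and 7.31 CPM in the vehicle libraries. The groups did not overlap, and the log2 fold change was 2.40 ± 0.45 (SE, adjusted p = 0.0809 from edgeR and 5.03e-05 from DESeq2). Loxl4, a lysyl oxidase, and Adamts2, which removes N-propeptides, had log2 fold changes of 1.78 and 1.65, and DESeq2 called Loxl4. Loxl2, another lysyl oxidase and the remaining gene of the 4, had 0.97. Pcolce2, which enhances C-propeptide removal, was the lower gene, at 4.18, 5.76, 1.49 and 19.2 CPM in the Tamoxifen libraries, against 59.5, 19.5, 19.2 and 16.2 CPM in the vehicle libraries. Its log2 fold change was -1.90 ± 0.74 (SE, adjusted p = 0.4 from edgeR), with oil2453 highest.

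Of 11 tested genes of fibril-binding proteoglycans and matrix proteins, 5 were higher and 0 lower under an unadjusted p of 0.05 (median 1.12). Sparc, which encodes a collagen-binding matrix protein, averaged 2135.1 ± 576.8 CPM in Tamoxifen and 569.7 ± 313.4 CPM in vehicle libraries (SD, n = 4 each; log2 fold change 1.91, adjusted p = 0.122 from edgeR and 0.00154 from DESeq2). Fn1, fibronectin, was at 3833.2, 3040.0, 3536.6 and 3753.3 CPM in the Tamoxifen libraries, against 1841.3, 1995.6, 681.0 and 1979.0 CPM in the vehicle libraries, without overlap (log2 fold change 1.12, adjusted p = 0.304 from edgeR). The log2 fold changes of Aspn, a small proteoglycan, and Tnc, tenascin C, were 1.39 and 1.31, and Bgn, biglycan, the remaining gene of the 5, had 1.27.

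Of 9 tested collagen receptors, 1 was higher under an unadjusted p of 0.05 and 0 were lower (median 0.12). It was Itga1, the integrin chain that binds collagen I and IV, at 64.7, 43.2, 62.0 and 23.7 CPM in the Tamoxifen libraries, against 4.28, 9.37, 7.71 and 20.3 CPM in the vehicle libraries. The log2 fold change was 2.21 ± 0.49 (SE, adjusted p = 0.111 from edgeR and 0.0012 from DESeq2). Itga11 and Itga2, further collagen-binding chains, had 1.49 each, and Itgb1, their common partner, 0.36. Of 7 collagen-degrading proteases, 0 were under an unadjusted p of 0.05 and DESeq2 called 0 (median 0.08). Mmp2, Mmp8, Mmp14 and Mmp13, which cleave collagen or gelatin, had log2 fold changes of 0.81, 0.83, 0.20 and -0.45. Summed pan-endothelial and mural cell markers were higher in all Tamoxifen libraries. So were Leprel1, Colgalt2, Fkbp14, Tll1, Loxl4, Adamts2, Loxl2, Sparc, Fn1, Itga1 and Itgb1. The part of endothelial and mural cells in the levels of these genes was not tested.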

How the data were processed

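Gene counts came from HTSeq 0.6.1, which the authors ran on reads that had passed their quality filter. Bowtie2 2.2.3, TopHat2 2.0.12 and the build mm8 appear in the processing notes of the submitters, whereas the gene positions of all 36 members overlap those of GENCODE M21 (GRCm38), 33 with the same bounds. The use of strand in counting is not stated, and 8 members are overlapped by another gene. The deposited counts are whole reads per gene, and the deposited FPKM were made by the authors from the counts and a gene length. The listed gene length, another deposited value, was used for an alternative of the ratios. The authors' p-values and fold changes in the same table were not used.

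Counts were tested with R 4.3.3 and edgeR 4.0.16 (TMM, filterByExpr with a minimum count of 10, quasi-likelihood test, Benjamini-Hochberg over 14539 genes, 4 Tamoxifen against 4 vehicle libraries, no covariate). For ratios of FPKM, an exact two-sided permutation test enumerated the 70 assignments. Of 8 listed ratios, 7 were tested, as Col8a2 was listed at 0 in oil2315 and oil2368. Alternatives were DESeq2 1.42.0, no filter, library size alone, median-of-ratios size factors, leaving out each library, counts per kilobase and a pseudocount of 1 FPKM. The fits were tested on simulated data. The members and lists were chosen with earlier results of these data known. By rule, values per library were given for the 8 tested members with the smallest p and the member of each class with the highest mean FPKM. Of each list of basement membrane collagens, enzymes and partners, up to 4 genes with the smallest p were named. For the lists of cell type markers this rule was not followed. Genes named beyond this rule, for the order of their libraries, to complete a count (Loxl2, Bgn) or beside a sum, were chosen after their values were seen, and Pecam1 as the target of the isolation. Promoter windows were matched by gene symbol.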

Additional observations from a re-analysis of the deposited data

Results flagged for a closer look

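Of 69 groups of 4 libraries examined (members' CPM, their sum and the ratios), 7 held a library far from the other 3 of its group, with a gap to the nearest of them above Dixon's critical value. Chance gives this in about 1 in 20 groups of independent, normally distributed values, whereas these groups share the same 8 libraries, and the rate for them was not tested. Of the 7, 5 came from the vehicle library oil2453. Col6a1 was at 513.2 CPM there, against 60.0 to 82.2 CPM in the other vehicle libraries, and Col6a2 at 303.1 CPM, against 28.5 to 56.9 CPM. Col3a1 was at 2487.7 CPM, against 610.8 to 930.5 CPM, and Col16a1 at 185.8 CPM, against 54.6 to 67.9 CPM. For Col3a1 the gap over the range was 0.83, barely above the critical value. The summed CPM of the members was 4034.8, against 1403.4 to 1672.0 in the other vehicle libraries. Among the Tamoxifen libraries, Col6a6 was at 4.16 CPM in Tax2382, against 0.786 to 1.19 CPM in the others. Col13a1 was at 31.9 CPM in Tax2604, against 11.4 to 12.5 CPM in the others, and remained above all vehicle libraries in each of the 4.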

How the results depend on the processing

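Over 12 alternatives, 19 of the 26 tested members kept the sign of their log2 fold change. DESeq2 called 1 member (Col13a1), where edgeR called 0 in each of its alternatives. Over all genes, edgeR called 177 with library size alone, 68 without a filter, 256 without oil2453, 31 without oil2368 and 0 in its other alternatives, and DESeq2 called 583. With library size alone, which moved the median of all genes to 0.06, Col11a2 was at 0.06 and Col3a1 at 0.18. Leaving out 1 library at a time, the log2 fold change ran from -0.54 to 0.58 for Col3a1, -0.30 to 1.44 for Col6a1, -0.22 to 0.07 for Col11a2, -0.94 to 0.08 for Col7a1, -0.67 to 1.20 for Col6a4, -0.89 to 0.04 for Col24a1 and -0.15 to 0.35 for Col5a3, and the log2 difference of Col6a3/Col6a2 from -0.14 to 0.73. Without 1 library, the log2 fold change moved by over 1.5 times or changed sign in 20 members, and did not in 6 (Col1a1, Col5a2, Col27a1, Col6a3, Col13a1 and Col28a1). The median over the members ran from 0.19 (without Tax2455) to 0.72. Of the genes in the other collagen lists, edgeR called 3 with library size alone, 1 without a filter and 0 to 5 without 1 library (5 without oil2453, 1 without oil2368), and DESeq2 called 10. The causes were not tested. No ratio passed an adjusted p of 0.05 under any alternative, and with 3 against 4 libraries the smallest p is 0.0571. No paired analysis was possible because the groups share no replicate numbers. With 4 libraries a group, standard errors of 0.29 to 1.0 on the log2 scale limit what can be told of single members. They were largest for Col6a4 (1.0), Col6a5 (0.94) and Col28a1 (0.88). They did not follow the counts alone, with 0.77 for Col6a1 (30879 counts) and 0.40 for Col20a1 (268 counts).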
